A study of Mus musculus with 3 samples.

Results

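Mice with rhinosinusitis labelled as CC10 knockouts were set against mice with the same disease labelled as wild type, gene by gene, in RNA of the sinonasal mucosa, which lines the nasal cavity and the sinuses. A gene entered when either of the 2 arrays detected its probe (detection p-value under 0.01), and 8919 of the 17349 genes with a named probe did so. By their labels the groups were wild-type C57BL/6 mice without disease (Control_WT), wild-type C57BL/6 mice with eosinophilic chronic rhinosinusitis of allergic type (ECRS_WT) and CC10 knockout mice of the C57BL/6 strain with that disease (ECRS_KO). All mice were 6 to 8 weeks old, each group was a pool of RNA from 5 mice, and each pool gave 1 Illumina bead array. No value therefore has an error between mice, no test was possible, and every fold below describes 1 pool against another. The sources used here name neither the agents that induced the disease nor the way the CC10 allele was made.

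Levels are normalised intensities on a linear scale, computed from the deposited signals with the background corrected and the 3 arrays brought to the same distribution. Where 3 levels of a gene are given, they stand in the order Control_WT, ECRS_WT, ECRS_KO. A gene is said to be higher or lower when its levels on the arrays labelled ECRS_KO and ECRS_WT were at least 2-fold apart and its probe was detected on the brighter one. Where the dimmer array did not detect the probe, the fold was taken against its level or the lowest detected level, whichever was higher. Such a fold is written as at least. Some undetected probes had levels far above the lowest detected level, and for these it is no firm bound. Signals before normalisation averaged 295, 373 and 465 over 35226 probes, of which 11428, 11992 and 12508 were detected. On the log2 scale the lowest level of a detected probe was 5.19, 5.06 and 5.00.

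CC10, or club cell secretory protein, is the product of Scgb1a1, a secretoglobin that club cells and other secretory cells release into airway fluid and that inhibits phospholipase A2. The nasal lining joins a respiratory part, with ciliated, secretory and basal cells over glands and vessels, to an olfactory part, where sensory neurons lie among sustentacular cells. Each olfactory neuron uses 1 receptor gene and signals through a G protein, adenylyl cyclase and a cyclic nucleotide-gated channel. The submucosa rests on the cartilage and bone of the septum and turbinates. In allergic disease eosinophils, T cells, macrophages and dendritic cells enter the mucosa, and the MHC molecules of the latter present antigen to T cells.

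Scgb1a1, the gene named by the label, did not bear the labels out. Its signal before normalisation was 3.32, undetected, for the label Control_WT, and 493 and 597, both detected, for the labels ECRS_WT and ECRS_KO. After normalisation the levels were 30.4 (not detected), 522 and 459, a difference of 1.14-fold lower on the array labelled ECRS_KO. That difference was -0.18 on the log2 scale and 0.01 under median scaling, so its sign was not settled. The 1 named probe may lie outside the deleted part of the gene, which the files do not locate, and in that case it would not check the knockout. Neither the position of the probe nor an exchange of labels or pools was tested. Arrays are therefore called by their labels, and every direction below rests on labels that Scgb1a1 did not bear out.

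Of the 8919 genes, 421 were higher on the array labelled ECRS_KO, which is 4.72% of them, and 210 were lower, which is 2.35%. In either direction 7.07% lay at 2-fold or more, so 92.9% lay within 2-fold of each other. Olfactory receptor genes alone made up 122 of the 421. Without that family 299 of 8630 genes were higher, or 3.46%. The median difference of all genes was -0.04 on the log2 scale, and 0.14 under median scaling, which gave 563 genes higher and 126 lower and moved the share of higher genes from 66.7% to 81.7%. Differences smaller than that shift, and counts of members above or below 0 that rest on them, therefore have no settled sign. Among all 8919 genes 4053 were above 0 and 4856 below it, the share to set beside such counts.

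Past 3-fold there were 141 genes higher and 39 lower, past 4-fold 47 and 16, and past 5-fold 23 and 7. Of the 8919 genes, the array labelled ECRS_KO alone detected 699 and the array labelled ECRS_WT alone 458. Both arrays detected 7762 genes, of which 286 were higher and 161 lower. The other 135 higher and 49 lower genes were detected on 1 array, so their folds are of the kind written as at least. Genes just inside the limit were Faim at 2.002-fold higher and Tnfrsf18 at 2.003-fold lower, and those just outside it were Chgb at 1.999-fold higher and Hp at 1.99-fold lower. Another probe of Faim differed by 0.06 on the log2 scale. When the genes were split by level into 5 groups of equal size, the share higher was 5.55% in the dimmest group, 6.61% in the next and 3.20% in the brightest.

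**Figure D1:**
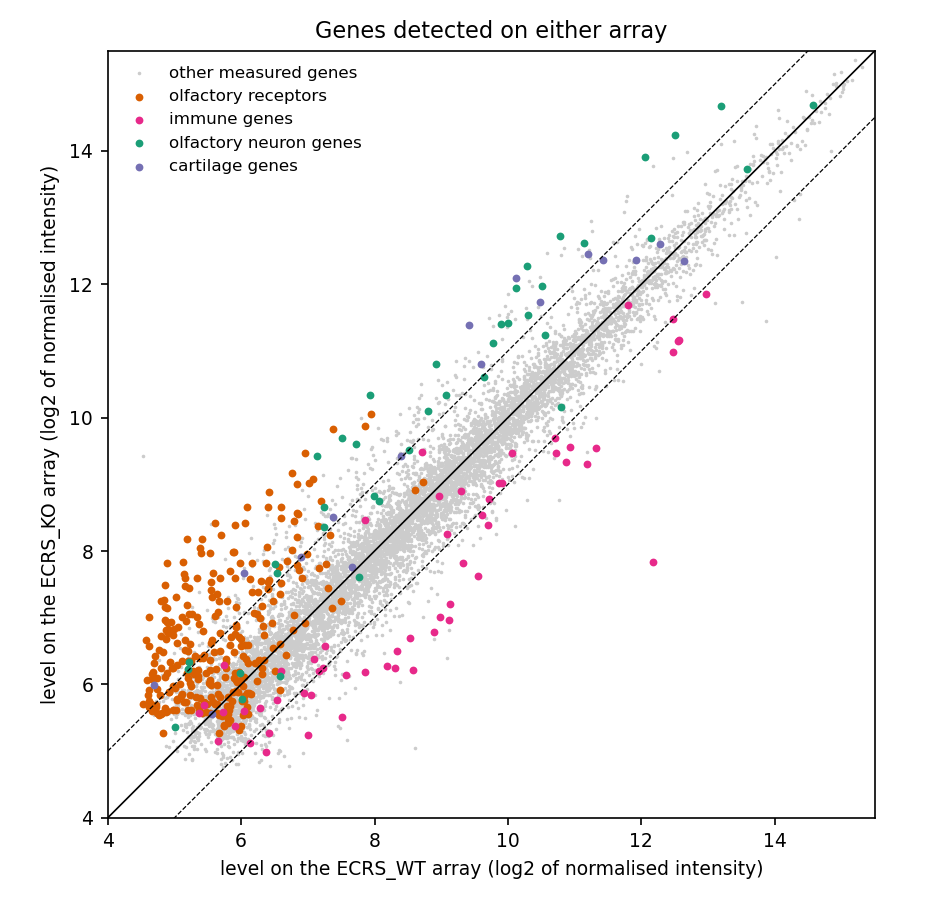
Each point is 1 of the 8919 genes, with its level in ECRS_WT across and in ECRS_KO upward (log2 of normalised intensity); the solid line marks equal levels and the dashed lines 2-fold. Olfactory receptors (orange) and olfactory neuron genes (green) lie mostly above the line, cartilage genes (violet) lie mostly on or above it, and the T cell, macrophage, MHC class II and chemokine genes grouped as immune (pink) lie mostly below it.

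Olfactory neuron genes were the largest group on the higher side, and 20 of the 23 genes past 5-fold were olfactory receptors. Of 1002 olfactory receptor genes with a probe, Control_WT detected 171, ECRS_WT 144 and ECRS_KO 279. In the same order, 7876, 8220 and 8461 of all 17349 genes were detected. The 134 receptor genes detected on both disease arrays had a median log2 difference of 0.68, against -0.05 over all 7762 such genes, with 48 higher and none lower. The array labelled ECRS_KO alone detected a further 145 and the array labelled ECRS_WT alone 10, against 699 and 458 over all genes. In this way 289 receptor genes were measured, 122 of them higher. Most of that number entered through the array on which they were high. Over all 1002 genes, detected or not, 134 differences reached 2-fold upward and none downward, at a median of 0.08, and the summed levels were 39024, 36690 and 59664.

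Among receptors that both disease arrays detected, Olfr424 had levels of 38.7 (not detected), 68.3 and 404 and was 5.92-fold higher on the array labelled ECRS_KO, and Olfr655 had levels of 36.4 (not detected), 51.9 and 304 and was 5.85-fold higher. Olfr969 had levels of 166, 124 and 708 and was 5.69-fold higher. Of those that ECRS_WT did not detect, Olfr651 (289) was at least 7.90-fold higher, Olfr608 (343) at least 7.07-fold higher and Olfr1362 (291) at least 6.83-fold higher. At the other end of the family stood Olfr205, with levels of 152, 96.0 and 60.1, which was 1.60-fold lower. Olfr191 was 1.46-fold lower and Olfr1419 1.33-fold lower, so these 3 lay within 2-fold. The family lies in clusters over many chromosomes. On chromosome 7, 45 of 84 measured receptors were higher, on chromosome 2, 34 of 67, on chromosome 9, 14 of 31, and on chromosome 16, where Olfr205 and Olfr191 lie, none of 9. Probes of near-identical receptors can share targets, so counts within a cluster are not counts of independent genes. The receptors depended on the background setting: 36 of the 122 kept 2-fold in the authors' normalised table and 4 under the background of limma's own function (limma's own inference). Both that function and the main setting work from detection p-values. Its background SD was 356 and 361 on the arrays labelled ECRS_WT and ECRS_KO, against 13.7 and 16.9 at the main setting. Under limma's own inference the dim Olfr651 differed by 0.41 on the log2 scale, against 2.98 at the main setting. Olfr969, Olfr615, Olfr672 and Olfr745 were the receptors that kept 2-fold under all 6 other settings of background and scaling.

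**Figure D2:**
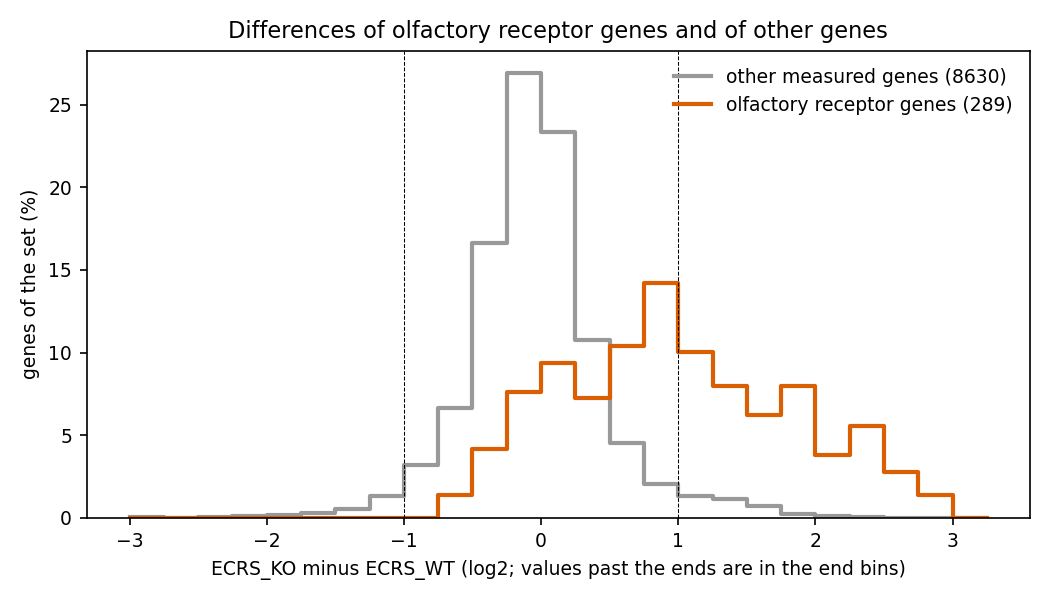
Share of genes (percent, vertical axis) in each bin of the log2 difference ECRS_KO minus ECRS_WT (horizontal axis), for the 289 measured olfactory receptor genes (orange) and the other 8630 measured genes (grey); dashed lines mark 2-fold. The receptors spread to 2.98 on the log2 scale, whereas the other genes gather around their median near 0. Of the 289 receptors 145 entered through the array labelled ECRS_KO alone, against 699 of all 8919 measured genes. One of the 145 is Olfr651, at 2.98 here and 0.41 under limma's own inference.

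Trace amine-associated receptors, a second class of olfactory receptors, were measured in 5 of 12 genes, with 3 higher and none lower. The array labelled ECRS_KO alone detected 4 of these 5, which entered through that array. Taar2 was detected on both arrays, with levels of 139, 147 and 384, and was 2.62-fold higher. Taar7b was at least 2.35-fold higher and Taar7a at least 2.15-fold higher. None of the 3 kept 2-fold under limma's own inference, and 1 did in the authors' values. Of 147 vomeronasal receptor genes 3 were detected on either array and all lay within 2-fold, among them Vmn1r232 at 54.0 and 40.7 (not detected) in ECRS_WT and ECRS_KO.

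Of 6 measured trafficking proteins of odorant receptors 3 were higher, and 2 of them, Rtp2 and Rtp1, had the highest folds of genes detected on both arrays outside the receptor family. Rtp2, a receptor-transporting protein that carries odorant receptors to the cell surface, had levels of 25.4 (not detected), 244 and 1290.0 and was 5.30-fold higher. Rtp1, its relative with the same task, had levels of 34.1 (not detected), 140.4 and 687 and was 4.89-fold higher, and another probe of Rtp1 differed by 1.76 on the log2 scale. The 2 genes lie 4 places apart on chromosome 16. Reep1, a receptor expression-enhancing protein, had levels of 431, 545 and 1483 and was 2.72-fold higher. The other 3 measured members, Reep3, Reep4 and Reep5, lay below 0 and within 2-fold, with Reep4 1.86-fold lower, so the median of the 6 was 0.65.

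Signal transduction genes were higher in 8 of their members. None of the 14 measured was lower, 3 lay below 0, the median log2 difference was 1.21, and their summed levels were 21684, 19986 and 49833. Gnal, the alpha subunit of the olfactory G protein, had levels of 170.5 (not detected), 183 and 832 and was 4.54-fold higher. Gng13, its gamma subunit, had levels of 14727, 9418 and 26065 and was 2.77-fold higher. Ric8b, an exchange factor and chaperone of that alpha subunit, was 2.77-fold higher. Adcy3, the adenylyl cyclase of olfactory cilia, had levels of 259.6, 447 and 1099 and was 2.46-fold higher. Cnga2 and Cnga4, subunits of the cyclic nucleotide-gated channel, had levels of 1149, 1246 and 4935 and of 133, 210.3 and 777, and were 3.96-fold higher and 3.70-fold higher. Ano2, the chloride channel that amplifies the current, was 2.53-fold higher, and Pde4a, a cyclic AMP phosphodiesterase, at least 2.18-fold higher. The other 6 lay within 2-fold. Cngb1, the third channel subunit, had levels of 173, 96.1 and 69.6 and was 1.38-fold lower. Under limma's own inference 7 of the 8 kept 2-fold, and 7 did in the authors' table.

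The promoters of 2 of these genes are shown because both genes stood among the highest folds and both promoters hold the core of the palindrome that EBF factors of olfactory neurons bind. The sequences are the 250 bases before the start of the gene, from RefSeq on GRCm38.p6, 5′ to 3′ on the strand of the gene, with matches to CCCNNGGG in capitals. Rtp2 lies on the minus strand (chr16:23930795-23931044) with its match 202 bases before the start, and Cnga2 on the plus strand (chrX:71991599-71991848) with its match 66 bases before.
Rtp2: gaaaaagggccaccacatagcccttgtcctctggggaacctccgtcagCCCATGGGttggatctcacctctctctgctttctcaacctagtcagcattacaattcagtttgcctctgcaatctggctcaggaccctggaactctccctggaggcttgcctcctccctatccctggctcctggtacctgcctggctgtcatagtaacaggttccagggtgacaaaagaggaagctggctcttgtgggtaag
Cnga2: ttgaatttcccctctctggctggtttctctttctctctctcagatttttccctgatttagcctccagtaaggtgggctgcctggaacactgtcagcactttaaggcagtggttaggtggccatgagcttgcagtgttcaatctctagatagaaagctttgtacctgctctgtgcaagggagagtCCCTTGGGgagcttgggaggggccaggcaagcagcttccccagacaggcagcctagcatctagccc
Both strands of the 250 bases before the start were searched. CCCNNGGG stood in 11.8% of 32851 promoters of 27025 genes. It stood in at least 1 promoter of 7 of 13 transduction genes (Ano2, Cnga2, Cngb1, Cnp, Gng13, Pde4a and Slc24a4), which have 25 promoters. The same held for 3 of 9 mature neuron genes (Cartpt, Rtp2 and Umodl1), which have 11 promoters. The share over all counts promoters and the list shares count genes, so they are not on the same scale. Cngb1 and Cnp are among the genes with a match and lay within 2-fold. The full EBF palindrome, which extends the core by a base on each side, stood in 0.779% of all promoters and in none of these. A match describes letters and shows neither binding nor a cause.

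Markers of mature olfactory neurons were higher in 10 of 13 measured genes and lower in none, with a median of 1.42. Cbr2, among the 13, is also on the list of sustentacular cell markers and was 1.08-fold higher. Cartpt, a neuropeptide precursor, had levels of 2528, 1753 and 6791 and was 3.88-fold higher. Stoml3, a stomatin-like protein of sensory cilia, had levels of 1649, 4276 and 15407 and was 3.60-fold higher. S100a5, a calcium-binding protein, had levels of 7207, 5823 and 19309.8 and was 3.32-fold higher. The transcription factor genes Ebf2 and Ebf1 were 2.68-fold higher and 2.01-fold higher, and Umodl1 2.84-fold higher. Omp, the olfactory marker protein that defines these neurons, did not share in this. Its levels were 11876, 12218 and 13535, which is 1.11-fold higher. The array labelled ECRS_KO was thus higher than both other arrays for Cartpt, Stoml3 and S100a5, and close to both for Omp. The median difference between the arrays labelled ECRS_WT and Control_WT was -0.06 for the same 13 genes, a comparison that shares the array labelled ECRS_WT. In RNA of whole mucosa, more cells of a type in the pool and more RNA per cell cannot be told apart.

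Genes of younger neurons and of synapses were also higher. Among 13 measured genes of immature neurons and progenitors 7 were higher and none lower, with a median of 1.11. Stmn4, a stathmin that regulates microtubules, had levels of 159, 223 and 1020.2 and was 4.58-fold higher. Gap43, a growth cone protein, had levels of 178, 89.8 and 286 and was 3.18-fold higher, and Stmn3 was 3.09-fold higher. Ncam1, a neural adhesion molecule, was 2.57-fold higher, with another probe at 1.53 on the log2 scale. Tubb3 was 1.19-fold lower, and Dpysl3 had levels of 1382 and 1379 on the 2 disease arrays. Probes of Neurod1, Neurog1 and Dcx, which mark neuronal progenitors and young neurons, were not detected on either disease array. Of the 7 higher genes 4 kept 2-fold under limma's own inference. On the array labelled ECRS_KO 3 of the 13 lay at least 2-fold above both other arrays. The median difference between ECRS_WT and Control_WT was -0.23, again with the array labelled ECRS_WT in both comparisons.

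Of 12 measured genes of synaptic vesicles and exocytosis, 8 were higher and none lower, with a median of 1.26. Syt1, a calcium sensor of vesicle release, had levels of 544, 486 and 1781 and was 3.67-fold higher. Snap25, of the fusion complex, had levels of 944, 1119 and 3922 and was 3.51-fold higher. Slc17a6, the vesicular glutamate transporter, was 2.75-fold higher and Syn1, a synapsin, 2.66-fold higher. Under limma's own inference 5 of the 8 kept 2-fold. Of the 12 synaptic genes 3 lay at least 2-fold above both other arrays on the array labelled ECRS_KO. Their median difference between ECRS_WT and Control_WT was -0.33. Of 8 measured neuronal cytoskeleton and sodium channel genes, Uchl1, a neuronal ubiquitin hydrolase, was 2.90-fold higher and Map1b 2.47-fold higher, while Mapt was 1.04-fold higher. Elavl3, an RNA-binding protein of neurons, had levels of 312, 211 and 665 (not detected), and is not counted because its brighter array did not detect it. Of 17 guidance genes 7 were measured: Dscam was at least 3.14-fold higher and Kirrel3 at least 2.52-fold higher, whereas Pcdh10, a protocadherin, had levels of 25.7 (not detected), 124 and 45.3 and was 2.74-fold lower. None of these 3 guidance genes kept 2-fold under limma's own inference or in the authors' table.

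Other genes known from neurons had high folds at the main background setting. Rgs7, which speeds the turning off of G proteins, had levels of 141, 83.5 and 373 and was 4.47-fold higher. Pirt, a membrane protein of sensory neurons, had levels of 115, 54.4 and 235 and was 4.33-fold higher. Mapk10, the neuronal Jun kinase, had levels of 26.9 (not detected), 90.0 and 338 and was 3.75-fold higher, with another probe at 1.39 on the log2 scale. Ttc9b was 4.17-fold higher, Nat14 4.01-fold higher and Ltk, a receptor tyrosine kinase, 3.75-fold higher. Tafa4, a secreted peptide of sensory neurons, had levels of 42.9 (not detected), 46.7 (not detected) and 338 and was at least 7.23-fold higher. None of these 7 genes kept 2-fold under limma's own inference, where their log2 differences ran from 0.29 for Pirt to 0.77 for Ltk. In the authors' values all 7 kept it, from 1.08 for Pirt to 1.62 for Tafa4. Among 27 measured G protein subunits, Gnao1, abundant in neurons, was 2.62-fold higher beside Gnal and Gng13, and Gng4 had levels of 351, 283 and 88.6 and was 3.19-fold lower, though at -0.32 on the log2 scale under limma's own inference. The median of that family was -0.05 and changed sign under median scaling.

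Genes of the supporting cells of the olfactory epithelium lay within 2-fold. All 10 measured markers of sustentacular cells and Bowman's glands lay within 2-fold, with a median of 0.08 whose sign changed when arrays were scaled on probes detected on all 3, and their summed levels were 121473, 119165 and 127052. Cyp2g1, an olfactory cytochrome, had levels of 3105, 10727 and 18179 and was 1.69-fold higher. Cyp1a2 had levels of 8739, 12663 and 8383 and was 1.51-fold lower, and Ugt2a1, which conjugates odorants, was 1.16-fold higher. Of 10 measured genes of glia and ensheathing cells, Mag, a myelin protein, was 2.42-fold higher against an undetected level of 121, and the rest lay within 2-fold. Mag also lay within 2-fold under limma's own inference and in the authors' values. Sox10, their common transcription factor, was 1.61-fold higher, and Apod, a lipocalin, 1.79-fold lower.

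**Figure D3:**
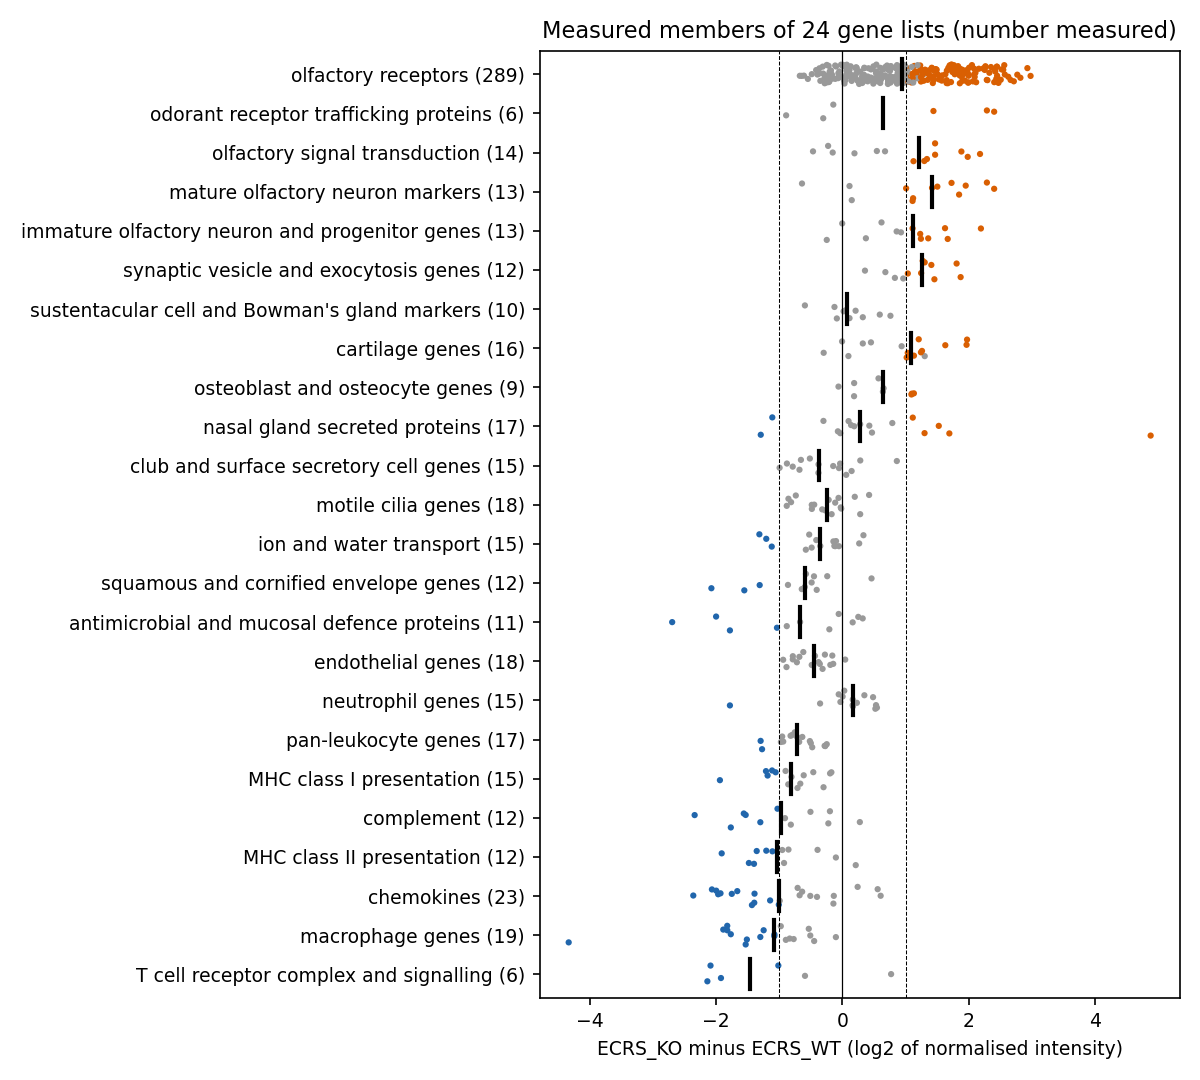
Log2 difference ECRS_KO minus ECRS_WT (horizontal axis) of every measured member of 24 gene lists, with the number measured in brackets; black bars are list medians, dashed lines 2-fold, orange points members higher and blue points members lower at 2-fold or more on the array that detected them. Olfactory neuron and cartilage lists have medians from 0.65 to 1.42, sustentacular and neutrophil lists lie near 0, and T cell, macrophage, chemokine and MHC class II lists have medians from -1.47 to -1.01. Over all genes with a probe, detected or not, medians were 0.08 for receptors, -0.01 for trafficking proteins, -0.26 for T cell genes and -0.40 for chemokines. For transduction, cartilage, macrophage and class II genes they were 1.13, 0.94, -0.95 and -0.95.

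Skeletal genes were the other group with many higher members. Of 16 measured cartilage genes 9 were higher and none lower, with a median of 1.08 and summed levels of 24427, 25314 and 41646. Col2a1, the main collagen of cartilage, had levels of 642, 682 and 2681 and was 3.93-fold higher. Col10a1, the collagen of hypertrophic cartilage, had levels of 299.6, 1112 and 4348 and was 3.91-fold higher. Acan, the large proteoglycan aggrecan, was 2.31-fold higher, Comp, a matrix protein of cartilage, 2.40-fold higher, Ucma 3.10-fold higher and Snorc 2.37-fold higher. Cilp2, a further protein of cartilage matrix, had levels of 134, 97.2 and 411 and was 4.23-fold higher, though at 0.55 on the log2 scale under limma's own inference. Sox9, the transcription factor of chondrocytes and of some glands, had levels of 4949, 4994 and 6247 and was 1.25-fold higher. The authors' table kept 5 of the 9 at 2-fold, and limma's own inference also 5.

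Bone genes leaned the same way with smaller differences. Of 9 measured osteoblast and osteocyte genes 3 were higher, with a median of 0.64. Phex, an endopeptidase of osteocytes, had levels of 627, 295 and 647 and was 2.19-fold higher, Omd was 2.14-fold higher and Ifitm5 2.14-fold higher. Phex and Ifitm5 were lowest on the array labelled ECRS_WT and nearly level on the other 2. The median of the list was -0.84 between ECRS_WT and Control_WT, again with the array labelled ECRS_WT in both comparisons. All 5 measured osteoclast genes lay within 2-fold, and Ctsk, their collagen-cleaving protease, was 1.41-fold higher. None of the 3 bone genes kept 2-fold under limma's own inference and 1 did in the authors' table. How much cartilage or bone each pool held is not given, and its part in these differences was not tested.

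Proteins secreted by nasal glands moved both ways. Of 17 measured, 5 were higher and 2 lower. Bpifb9b, a secreted lipid-binding protein, had levels of 1577, 23.1 (not detected) and 684 and was at least 20.6-fold higher. It was thus detected on the arrays labelled Control_WT and ECRS_KO alone. The size of this difference depends on the background: on the log2 scale it was 3.13 in the authors' values and 1.24 under limma's own inference. Pip, the prolactin-inducible protein, had levels of 5026, 2437 and 7889 and was 3.24-fold higher, Lcn4, a lipocalin, had levels of 4844, 6553 and 16157 and was 2.47-fold higher, and Bpifb5 was 2.88-fold higher. The odorant-binding protein Obp1a was 2.17-fold higher, whereas Obp2a, at 34782 and 33968 on the 2 disease arrays, was 1.02-fold lower. Bpifa2 and Bpifb1, of the same family as Bpifb9b, were 2.45-fold lower and 2.16-fold lower. The median of the list was 0.28 and changed sign with scaling on probes detected on all 3 arrays. Summed levels were 185055, 187857 and 219047.

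In the airway epithelium that makes CC10, the listed club cell, secretoglobin and cilia genes differed little. All 15 measured genes of club and surface secretory cells lay within 2-fold, at a median of -0.38, with Cyp2f2, the club cell cytochrome, at 33297, 33468 and 32229.6. Hp, haptoglobin, was 1.99-fold lower, and Sec14l3 was 1.82-fold higher. The 5 measured members of the secretoglobin list also lay within 2-fold. Scgb1b29, a secretoglobin outside that list, was 2.89-fold higher and kept 2-fold under all 6 other settings of background and scaling. Scgb1b27 had levels of 7957, 9374 and 17571 and was 1.87-fold higher, and Scgb2b2 was 1.72-fold lower. Among 20 measured neighbours of Scgb1a1 on chromosome 19, Lrrn4cl was at least 2.20-fold lower, a call lost in the authors' values and under limma's own inference, and the others lay within 2-fold, with a median of -0.21. All 18 measured genes of motile cilia lay within 2-fold, at a median of -0.24, and Foxj1, the master factor of multiciliated cells, had levels of 133, 123 and 66.9.

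Of 17 measured genes shared by leukocytes 2 were lower and none higher. All 17 were below 0 on the log2 scale, against 4856 of all 8919 measured genes. The median of the 17 was -0.72, and their summed levels were 13717, 14823 and 9246. The 2 lower ones were as follows: Selplg, the selectin ligand, with levels of 1696, 1655 and 674, was 2.46-fold lower, and Hcls1 was 2.42-fold lower. Selplg alone kept 2-fold in the authors' values and under limma's own inference. Coro1a, an actin regulator of lymphocytes, was 1.77-fold lower, and Laptm5 1.43-fold lower. Between the same 2 arrays the summed level of mature olfactory neuron markers stood in a ratio of 1.71 and that of leukocyte genes in a ratio of 0.624, ECRS_KO over ECRS_WT. Cbr2, also a listed sustentacular marker, held 24437 of the neuron sum of 53192 on the array labelled ECRS_WT. On the array labelled ECRS_KO it held 26412 of 91147. The part of the neuron ratio in the leukocyte ratio was not tested.

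T cell genes were mostly undetected. Of 25 with a probe 6 were measured, and 4 of these were lower, with a median of -1.47. Over all 25, detected or not, the median was -0.26. Cd3d, Cd3e and Cd3g, the invariant chains of the T cell receptor complex, are neighbours on chromosome 9. Cd3d had levels of 649.8, 554 and 126 and was 4.41-fold lower. Cd3e had levels of 356, 473 and 111 and was 4.26-fold lower, and Cd3g had levels of 352, 562 and 148 and was 3.80-fold lower. All 3 were thus lowest on the array labelled ECRS_KO, below both other arrays. Cd2 was at least 2.02-fold lower, Cd8b1 1.51-fold lower and Bcl11b, a transcription factor that neurons and epithelia also use, 1.71-fold higher. Probes of Cd4, Cd28, Il7r and Foxp3 were not detected. Of these 4 the authors' table kept 3 at 2-fold and limma's own inference none, where Cd3d differed by -0.79 on the log2 scale.

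Among 8 measured genes of NK and cytotoxic cells, Nkg7, a protein of cytotoxic granules, was at least 3.40-fold lower and Ccl5 at least 3.37-fold lower. Of the 8, both disease arrays detected 4, all within 2-fold, and the array labelled ECRS_WT alone detected 3. Itgae, the integrin of T cells that lodge in epithelia, was at least 2.89-fold lower, and kept 2-fold neither in the authors' values nor under limma's own inference. All 9 measured B cell genes were below 0, and 2 were lower at 2-fold. One of them, Ly6d, had levels of 5242, 16678 and 5455 and was 3.06-fold lower, and squamous epithelia express it too. The other was Pou2af1, a coactivator of B cells, at 2.02-fold lower. Of 10 measured dendritic cell genes Ccr7, their homing receptor, was 2.05-fold lower, while Zbtb46, a transcription factor of classical dendritic cells, was 1.79-fold higher. The array labelled ECRS_WT alone detected 5 of those 10. Probes of Ms4a1 and Cd79a were not detected, and Cd79b was 1.43-fold lower. Of 8 measured plasma cell genes, Mzb1, a chaperone of antibody-secreting cells, had levels of 991, 713 and 272 and was 2.62-fold lower, and Tnfrsf17, their survival receptor, was 2.98-fold lower. Of the genes at 2-fold in the NK, B and plasma cell lists, limma's own inference kept 0 of 2, 1 of 2 and 0 of 2, and the authors' table kept 1 in each.

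Macrophage genes gave the largest number of lower members after the chemokines. Of 19 measured, 11 were lower and none higher, all 19 were below 0, and the median was -1.08. Both disease arrays detected 15 of them, of which 9 were lower, and the array labelled ECRS_WT alone detected 4. Summed levels of the 19 were 14042, 21627 and 8538. C1qa, C1qb and C1qc, the subunits of complement C1q made by macrophages, had levels of 802, 828 and 336, of 1319.5, 2556 and 749.7 and of 790.2, 1867 and 645. They were 2.47-fold lower, 3.41-fold lower and 2.90-fold lower. Fcer1g, the signalling chain of Fc receptors, had levels of 2732, 2337 and 631 and was 3.70-fold lower. Trem2, a lipid-sensing receptor, had levels of 339, 322 and 90.9 and was 3.55-fold lower. Ms4a6d was at least 3.54-fold lower, Ms4a7 2.86-fold lower and Cd14, the co-receptor for endotoxin, 2.38-fold lower.

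Gpnmb, a glycoprotein of macrophages and of melanocytes, had the largest downward difference. Its levels were 1772 (not detected), 4623 and 228 (not detected), which is 20.3-fold lower. Its probe was marked undetected even at a signal of 1276 on the array labelled Control_WT, so this fold is no firm bound. Mlana, which melanocytes express and macrophages do not, had levels of 134, 192 and 35.8 (not detected) and was at least 5.38-fold lower, though at -0.25 on the log2 scale under limma's own inference. Tyr, Tyrp1, Dct and Pmel, the enzymes and matrix protein of pigment, were not detected on either disease array, so 2 of 12 melanocyte genes were lower. Among macrophage genes within 2-fold, Mrc1, the mannose receptor, was 1.86-fold lower, Adgre1 at least 1.45-fold lower and Lgmn, a lysosomal protease with levels of 1827, 3555 and 3309, 1.07-fold lower. Of the 11 lower genes 10 kept 2-fold in the authors' table and 6 under limma's own inference. In the same 19 genes the median difference of ECRS_WT from Control_WT was 0.31, with the array labelled ECRS_WT in both.

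Of 12 measured MHC class II genes 6 were lower and none higher (median -1.03), and the summed levels were 17146, 27670 and 13368. H2-Eb1, a beta chain, had levels of 4935, 5667 and 2027 and was 2.80-fold lower. H2-Aa, an alpha chain, had levels of 236, 293 and 77.6 and was 3.77-fold lower, and H2-Ab1, its partner, had levels of 4448, 8002 and 3708 and was 2.16-fold lower. Cd74, the invariant chain, had levels of 3098, 6024 and 2279 and was 2.64-fold lower. H2-DMb1, which helps to load peptides, was 2.57-fold lower, with another probe at -1.24 on the log2 scale. Ciita, the coactivator that drives the class II genes, had levels of 119, 132 and 57.2 and was 2.31-fold lower. H2-Oa and H2-DMa lay just within 2-fold at 1.94-fold lower and 1.90-fold lower, and H2-Eb2 was at least 1.16-fold higher. Of the 6 lower genes 5 kept 2-fold in the authors' values and 4 under limma's own inference.

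Promoters of 2 class II genes are shown because Ciita acts through the conserved boxes of these promoters, of which the Y box is marked in capitals (CTGATTGG). They are the 250 bases before the start from RefSeq on GRCm38.p6, H2-Aa on the minus strand (chr17:34287824-34288073) with its Y box 51 bases before the start, and H2-Eb1 on the plus strand (chr17:34305617-34305866) with its Y box 62 bases before.
H2-Aa: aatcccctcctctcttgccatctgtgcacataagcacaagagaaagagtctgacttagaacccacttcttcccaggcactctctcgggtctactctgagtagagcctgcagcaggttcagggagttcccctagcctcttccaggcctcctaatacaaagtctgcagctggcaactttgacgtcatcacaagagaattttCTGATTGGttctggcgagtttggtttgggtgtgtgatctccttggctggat
H2-Eb1: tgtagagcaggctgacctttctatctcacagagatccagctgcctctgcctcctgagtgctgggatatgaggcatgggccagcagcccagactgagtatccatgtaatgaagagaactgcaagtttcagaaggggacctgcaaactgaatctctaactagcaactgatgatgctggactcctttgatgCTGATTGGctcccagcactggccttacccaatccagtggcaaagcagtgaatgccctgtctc
CTGATTGG stood in 3.83% of all promoters. It stood in at least 1 promoter of 4 of 9 class II genes (H2-Aa, H2-Eb1, H2-Eb2 and H2-Oa), which have 11 promoters. The same held for 4 of 11 class I genes (H2-Q6, H2-Q7, Psmb9 and Tap1), which have 12. Here too the share over all counts promoters and the list shares count genes. Of these 8 genes, H2-Aa, H2-Eb1, H2-Q6 and Psmb9 were lower at 2-fold and the others lay within it. Of the other motifs searched on both strands, the X box CCTAGCAAC stood in 0.694% of promoters and in H2-Ob and Cnga4. TGACGTCA stood in 1.55% and in Cartpt and H2-Aa, and GGGANTTCC, an NF-kB site, in 1.43% and in H2-Aa. A longer NF-kB site stood in 0.140% and CCGGAAGT, an Ets site, in 2.88%, neither in these lists. The STAT site TTCNNNGAA stood in 7.02% and in Adcy3, Pde1c, H2-M3 and Psmb8. No motif but the palindrome and its core overlap by their letters, and a missing match says nothing of the factor.

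All 15 measured class I genes were below 0, at a median of -0.81, and 5 were lower at 2-fold. Psmb8, Psmb9 and Psmb10, the inducible catalytic subunits of the immunoproteasome, had levels of 1671, 2245 and 969, of 948, 818 and 359.5 and of 2265, 1894 and 909. They were 2.32-fold lower, 2.28-fold lower and 2.08-fold lower, whereas Psmb5, Psmb6 and Psmb7, the constitutive counterparts, were 1.03-fold higher, 1.20-fold lower and 1.23-fold higher. Nlrc5, the coactivator of class I genes, had levels of 197, 168 and 77.4 and was 2.17-fold lower. H2-Q6 was 3.84-fold lower, with another probe at -1.72 on the log2 scale, though near-identical H2-Q genes can share its probes. Tap1, of the peptide transporter, was 1.81-fold lower. Of the 5, 4 kept 2-fold in the authors' values, 2 under limma's own inference and 2 under median scaling. Of the 23 measured proteasome subunits the only further one at 2-fold was Psmc1, which was at least 3.30-fold lower but lost 2-fold in the authors' values and under limma's own inference, and the median of the family was 0.00.

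Of 12 measured complement genes 6 were lower and 1 was above 0, at a median of -0.97. Beside C1q, Cfi, the protease that inactivates complement, had levels of 353, 334 and 65.8 and was 5.07-fold lower. C2, of the classical pathway, had levels of 4395, 4909.8 and 1661 and was 2.96-fold lower, and Clu, the abundant regulator clusterin, had levels of 24236, 20001 and 9798 and was 2.04-fold lower. Cd59a, a membrane inhibitor, was 1.21-fold higher. All 6 kept 2-fold in the authors' table, and all but Cfi, at -0.45 on the log2 scale, under limma's own inference.

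Chemokines had 12 lower members of 23 measured, no higher one, and a median of -1.01. Both disease arrays detected 17 of them, of which 8 were lower, at a median of -0.99. The array labelled ECRS_WT alone detected 5, which entered through that array. Over all 35 with a probe, detected or not, the median was -0.40. Ccl8, which attracts monocytes, T cells and eosinophils, had levels of 297, 382 and 74.2 and was 5.15-fold lower. Cxcl9, an interferon-induced attractant of T cells, had levels of 279, 317 and 75.5 and was 4.20-fold lower, and Cxcr3, its receptor, was at least 3.14-fold lower, a call lost in the authors' values and under limma's own inference. Cxcl16, a membrane-bound chemokine, had levels of 411, 504 and 129 and was 3.92-fold lower. Cxcl1, which attracts neutrophils, had levels of 291, 752 and 197 and was 3.82-fold lower. Ccl21a, which draws dendritic and naive T cells through Ccr7, was 2.63-fold lower, and near-identical copies of it can share its probe. Ccl17, which attracts Th2 cells, was at least 2.21-fold lower. Ccl11, eotaxin, had levels of 45.8 (not detected), 77.9 and 50.1 and was 1.56-fold lower, while probes of Ccl24, Ccl2 and Cxcl10 were not detected. Of the 12, 7 kept 2-fold in the authors' table and 3 under limma's own inference.

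Inducible inflammatory genes lay lower with fewer members at 2-fold. Of 12 measured interleukins and receptors all were below 0 and 2 were lower, namely Il1b, with levels of 680.3, 765 and 294, at 2.60-fold lower, and Il10ra at 2.71-fold lower. Neither kept 2-fold under limma's own inference. Of 17 measured interferon-induced genes, the GTPase genes Igtp and Irgm2 were 2.27-fold lower and 2.01-fold lower, Rsad2 was 1.04-fold higher, and the median was -0.45. Neither GTPase gene kept 2-fold under median scaling. Of 12 measured NF-kB genes, Icam1, an adhesion molecule, had levels of 1029, 1274 and 547 and was 2.33-fold lower, and Bcl3 was at least 2.39-fold lower, a call lost in the authors' values and under limma's own inference. All 14 measured immediate early genes were below 0, at a median of -0.64, with Klf4 2.14-fold lower (within 2-fold under median scaling), Fos 1.97-fold lower and Egr1 1.73-fold lower.

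CC10 inhibits phospholipase A2, and all 8 measured phospholipase A2 genes lay within 2-fold, at a median of -0.26. Pla2g5, a secreted form, had levels of 132, 98.3 and 162 and was 1.65-fold higher, and Pla2g10 was 1.14-fold lower. The probe of Pla2g4a, the cytosolic form that frees arachidonic acid, was not detected. Of 15 measured genes of prostaglandin and leukotriene synthesis and receptors, Ptges, an inducible prostaglandin synthase, was 2.25-fold lower and Alox12e 2.08-fold lower. Ltc4s and Alox5ap, of leukotriene synthesis, were 1.95-fold lower and 1.80-fold lower. Neither Ptges nor Alox12e kept 2-fold under limma's own inference or in the authors' table.

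The markers that would define an eosinophilic infiltrate were mostly undetected. Of 8 eosinophil genes with a probe 1 was detected on the 2 disease arrays. Prg2, the major basic protein, had levels of 1816, 932 and 846 and was 1.10-fold lower, lower on both disease arrays than on the array labelled Control_WT. Probes of Epx, Prg3, Ccr3, Siglecf and Il5ra were not detected on either disease array. Of 18 type 2 cytokine genes, receptors and factors 5 were measured and all lay within 2-fold. Il33, an epithelial alarmin, had levels of 2514, 2513 and 3369.9 and was 1.34-fold higher, and Il13 had levels of 106, 101 and 99.6, while Il4 and Il5 were not detected. Of 7 measured mast cell and basophil genes, the mast cell proteases Mcpt4 and Cma1 were 2.35-fold lower and 2.35-fold lower, and neither kept 2-fold in the authors' table.

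Of 15 measured neutrophil genes 1 was lower and the others lay within 2-fold, with 11 above 0. The median was 0.16, within the shift between scalings. Mpo, an enzyme of their granules, had levels of 1122, 510.3 and 738 and was 1.45-fold higher, and S100a9, of the calprotectin pair, was 1.40-fold higher. The lower one was Lcn2, an iron-trapping protein that epithelia also make, with levels of 9418, 11701 and 3398, at 3.44-fold lower.

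**Figure D4:**
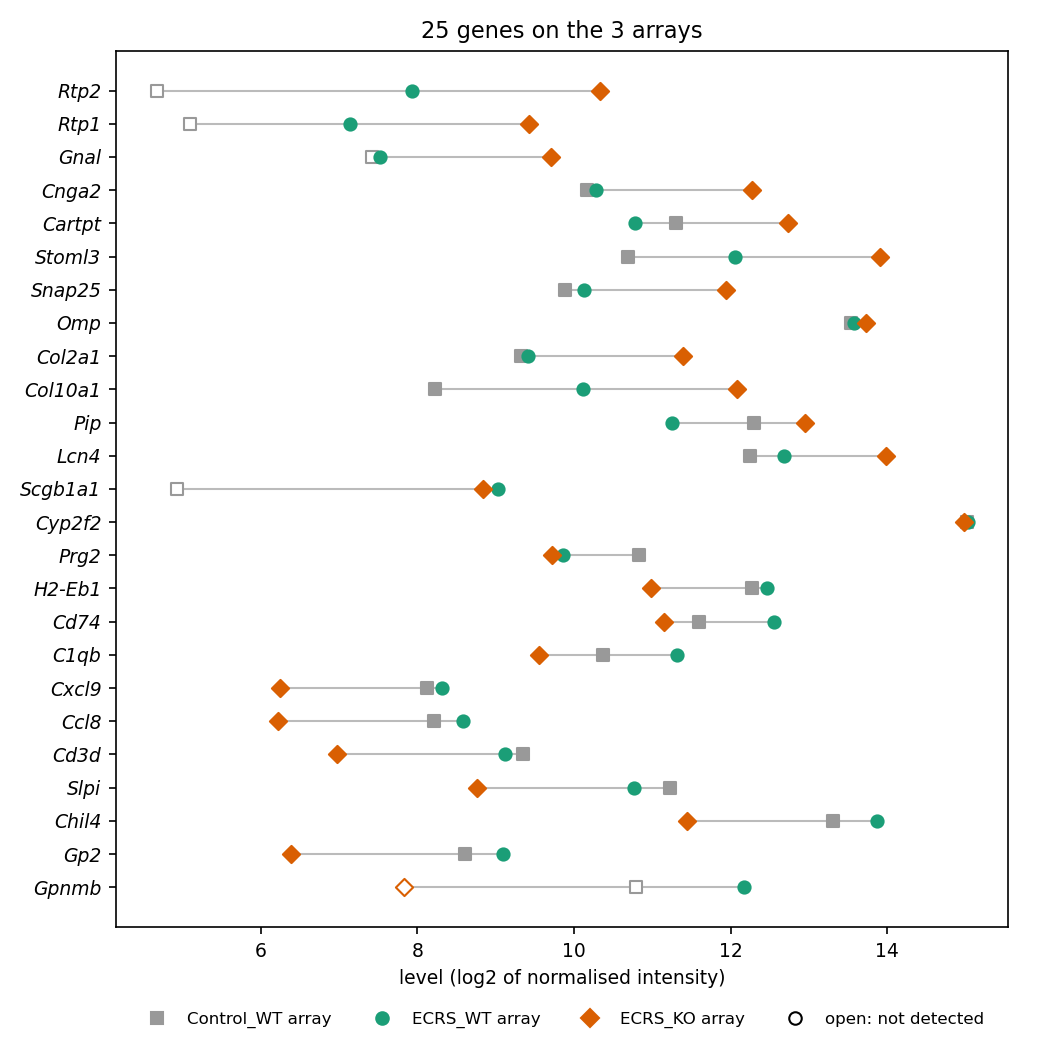
Levels (log2 of normalised intensity, horizontal axis) of 25 genes on the arrays labelled Control_WT (grey squares), ECRS_WT (green circles) and ECRS_KO (orange diamonds), with open symbols where the probe was not detected. Rtp2 to Snap25, Col2a1, Col10a1, Pip and Lcn4 have their highest level on the array labelled ECRS_KO, H2-Eb1 to Gpnmb their lowest, and Omp, Cyp2f2 and the disease arrays' Scgb1a1 and Prg2 nearly coincide.

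Epithelial defence genes lay lower in part. Of 11 measured antimicrobial and mucosal defence genes 4 were lower. Gp2, a glycoprotein that binds bacteria at mucosal surfaces, had levels of 389, 545 and 83.9 and was 6.49-fold lower, but its log2 difference was -0.83 under limma's own inference. Slpi, an inhibitor of leukocyte proteases, had levels of 2385, 1736 and 433 and was 4.01-fold lower. Pigr, which carries IgA across epithelia, had levels of 1902, 3097 and 1509 and was 2.05-fold lower, though at -0.90 on the log2 scale under median scaling, and the fourth was Lcn2. Ltf, lactoferrin, at 37787 and 42283 on the 2 disease arrays, was 1.12-fold higher. Of 6 measured chitinase-like genes, Chil4, a secreted protein of allergic airways, had levels of 10164, 14940.2 and 2794 and was 5.35-fold lower, and Chil1 was 2.26-fold lower. Chia1, the acidic chitinase, was 1.02-fold higher, and Chit1 1.58-fold higher. Both Chil4 and Chil1 kept 2-fold in the authors' table and under limma's own inference.

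The cell surface mucin genes Muc1, Muc4 and Muc20 were 2.35-fold lower, 2.55-fold lower and 2.04-fold lower, and of these 1 kept 2-fold in the authors' values and 1 under limma's own inference. The secreted gel-forming mucins did not share this: Muc5ac had levels of 2126 (not detected), 1490.3 and 1569 and was 1.05-fold higher, and Muc5b was 1.15-fold lower. Of 10 measured goblet cell and interleukin-13 responsive genes, Itln1, the lectin intelectin, had levels of 658, 196 and 70.1 and was 2.79-fold lower, and Serpinb2 was 2.37-fold lower. Neither kept 2-fold in the authors' table, and Clca1, Fcgbp, Retnlb and Postn were not detected. Of 15 measured ion and water transport genes 3 were lower. Scnn1a and Scnn1b, subunits of the epithelial sodium channel, were 2.31-fold lower and 2.17-fold lower, Scnn1g, the remaining subunit, was 1.07-fold lower, and Kcnj16, a potassium channel, 2.49-fold lower. Cftr, the chloride channel, was 1.40-fold lower. Of 10 measured tight junction genes Cldn4 was 2.22-fold lower, but not at 2-fold under median scaling, and the others lay within 2-fold.

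Basal and squamous genes were lower in a few members. Of 13 measured basal cell genes 12 were below 0, and Krt17 and Pdpn were 2.27-fold lower and 2.29-fold lower, while Krt5, the defining keratin, had levels of 400.3, 653 and 371 and was 1.76-fold lower. Of 12 measured squamous genes, the cornified envelope genes Sprr3 and Sprr1a were at least 4.22-fold lower and 2.48-fold lower and Krt6b at least 2.94-fold lower. Loricrin (Lor) was 1.38-fold higher. Under limma's own inference none of those 3 kept 2-fold, and 1 did in the authors' values. Skint6, of an immunoglobulin-like family of squamous epithelia, was at least 4.36-fold lower, though at -0.22 on the log2 scale under limma's own inference. In 5 measured tuft cell genes Trpm5, their cation channel, was at least 2.05-fold lower, but its log2 difference was -0.84 under median scaling, -0.55 in the authors' values and -0.12 under limma's own inference. Among 18 measured keratins, Krt90 and Krt72 were 2.56-fold higher and 2.55-fold higher, and Krt72 lost 2-fold under limma's own inference and in the authors' values.

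All 18 measured endothelial genes lay within 2-fold, at a median of -0.45, with Selp, the selectin of activated endothelium, at 1.92-fold lower and Pecam1 at 1.24-fold lower. All 11 measured genes of fibrillar and interstitial matrix did so too, at a median of -0.08. Among 13 measured metalloproteinases and inhibitors, Mmp3, a matrix protease, had levels of 47.0, 389 and 33.1 (not detected) and was at least 11.7-fold lower. It did not keep 2-fold under limma's own inference, where it differed by -0.61. Csrnp1, a nuclear protein, and Tmem108, a transmembrane protein, were also among the lowest genes detected on both arrays, at 4.61-fold lower and 4.92-fold lower, and under limma's own inference both lost 2-fold, at -0.66 and -0.81 on the log2 scale.

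All 40 measured cytosolic ribosomal protein genes lay within 2-fold, at a median of -0.10. Of 60 measured subunits of oxidative phosphorylation 1 was lower, Cox8b, a muscle and brown fat isoform, with levels of 12869.8, 21039 and 8079, at 2.60-fold lower, and the median was -0.07. All 19 measured genes of the unfolded protein response lay within 2-fold at a median of 0.07, as did all 11 measured cell cycle genes at -0.09. Of 5 measured reference genes Gapdh was 1.12-fold higher and Actb 1.20-fold lower. Skeletal muscle, adipocyte and erythroid genes had medians of 0.10, -0.01 and 0.13, with Atp2a1 2.26-fold higher and Hbb-b2 2.19-fold higher, both calls lost in the authors' values and under limma's own inference. Under median scaling the medians of secretoglobin, goblet cell, tight junction, cell cycle, adipocyte and metalloproteinase genes, and the difference of Prg2, changed sign. Of further families, all measured genes of xenobiotic conjugation, basement membrane, heat shock, sterol and fatty acid synthesis, glycolysis, insulin-like growth factors, the vacuolar proton pump, cytochromes P450 and killer cell lectin-like receptors lay within 2-fold. Of 17 measured serpins 3 were lower, with Serpina3f at least 2.41-fold lower, and of 20 measured glutathione S-transferases Gstp3 was 2.58-fold lower. Of 24 measured collagen chains 5 were higher, with Col26a1, outside the cartilage list, 2.50-fold higher. Under limma's own inference Serpina3f, Gstp3 and Col26a1 lost 2-fold. Sex-linked genes were not detected, so the sex of the pools was not compared.

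A second probe gave the one check within these arrays. In 485 genes 545 further probes were detected on both disease arrays, and each was paired with the brightest probe of its gene. The SD of the log2 difference of a single probe within a pair was 0.29, pooled over pairs. The gap between the 2 probes of a pair exceeded 1 on the log2 scale in 19 pairs. Of the 23 pairs in which the brightest probe was at 2-fold, 20 had the same sign and 13 were at 2-fold with it, 9 of 19 among the higher and 4 of 4 among the lower. These probes were read on the same 2 pools, so they bear on the probe and not on the mice. Across the 6 other settings of background and scaling, 116 of the 421 higher genes and 37 of the 210 lower genes stayed at 2-fold throughout. The 6 include limma's own inference, with its background SD of 356 and 361 on the arrays labelled ECRS_WT and ECRS_KO. Among the genes that stayed were Rtp1, Rtp2, Gnal, Cnga2, Cnga4, Stoml3, Syt1, Snap25, Col2a1, Col10a1, Pip and Bpifb9b on the higher side. On the lower side they held Chil4, Slpi, Lcn2, Cxcl1, C1qa, C1qb, C1qc, C2, Fcer1g, Cd74, H2-Eb1, H2-Ab1, Gpnmb, Muc1 and Scnn1a.

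**Figure D5:**
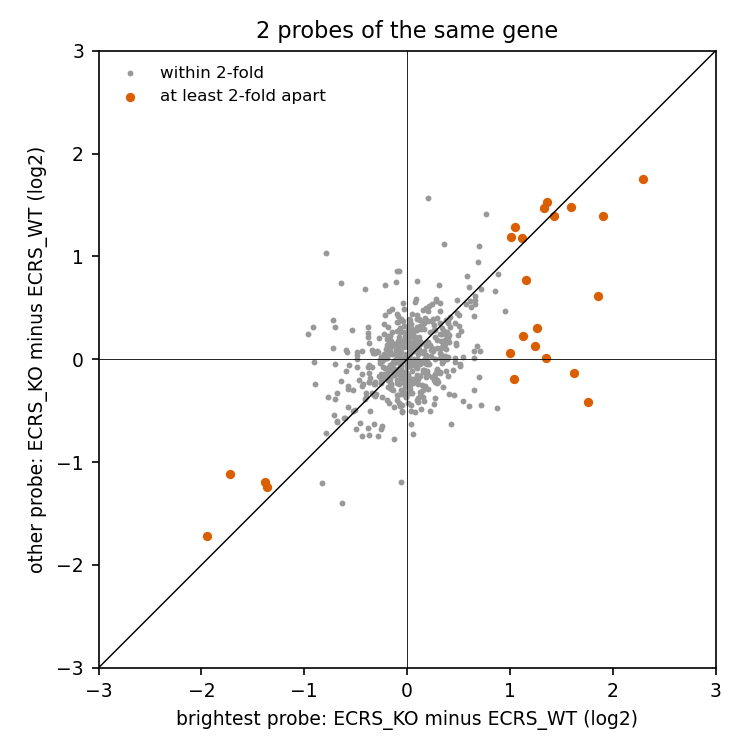
Log2 difference ECRS_KO minus ECRS_WT of the brightest probe of a gene (horizontal axis) and of another detected probe of the same gene (vertical axis), for 545 pairs; the diagonal marks equal differences and orange points the 23 pairs whose brightest probe was at least 2-fold apart. All 4 lower pairs and 9 of the 19 higher pairs were 2-fold apart the same way on both probes, and 3 of the 23 had opposite signs.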

How the data were processed

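RNA of 3 pools, each of 5 mice, was read on 1 Illumina bead array per pool, so groups hold 1 sample each. Per the file headers, the deposited non-normalized table holds, for 35226 probes on each array, the signal intensity and its detection p-value. The authors also deposited a series table of normalized intensity values, made with BeadStudio per the submitters' processing notes, whose scaling is not given in the sources used here. The platform annotation named 1 gene for 20571 probes, several for 10 and none for 14645. By Entrez number 20525 probes matched RefSeq on GRCm38.p6.

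Signals were corrected with normexp in limma 3.58.1 (R 4.3.3), with an offset of 16. Negative control probes were not used here, and detection p-values did not always follow the signal (some bright probes are marked undetected). The background was therefore taken as the mean and SD of the median signals in 100 bins of the detection p-value. The 3 arrays were then quantile normalized. The brightest probe stood for each of the 2558 genes with several probes. A gene was measured when detected at p under 0.01 on either disease array, and called at 2-fold on an array that detected it. No test, standard error or p-value was computed, since each group is 1 array. The computation was tested on simulated data. The probes changed there lay well above the background, were detected on every array, and had detection p-values that followed the signal. It therefore could not test dim genes or the choice of background.

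The members and the 83 gene lists were chosen with earlier results of these data known. The rule for named genes took Scgb1a1, the 15 highest and 15 lowest genes on both arrays outside the olfactory receptors, the 5 highest and 5 lowest on 1 array, the 3 highest and 3 lowest receptors, and per list up to 4 members past 2-fold by size, filled up to 2 with the brightest. It gave 210 genes, and further list members were named after their values were seen. Alternatives covered background, scaling, offset, detection and fold limits and probe choice. A further 2 were chosen after seeing the data, namely scaling on the median of probes detected on all 3 arrays and the brightest detected probe. Python 3.11.15, numpy 2.4.6, pandas 2.3.3 and matplotlib 3.10.9 were used.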

Additional observations from a re-analysis of the deposited data

How the results depend on the processing

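Against 421 genes higher and 210 lower, limma's own inference of the background gave 144 and 81, the authors' normalised values gave 212 and 95, no background correction 295 and 128, and an offset of 50 gave 284 and 121. Median scaling gave 563 and 126, and moved the median difference of all genes from -0.04 to 0.14. A limit of 1.5-fold gave 853 and 783, and of 3-fold 141 and 39. Quantile normalization of the 2 disease arrays alone, the other detection rules, the mean of a gene's probes and both alternatives added after seeing the data gave from 286 to 478 genes higher and from 161 to 242 lower. List medians close to 0 changed sign under median scaling, as named in the results. Without the detection filter the median of chitinases and chitinase-like proteins changed sign to 0.012 and that of odorant receptor trafficking proteins to -0.010, since undetected members joined them. The causes of the other changes were not tested. No paired analysis was possible because each group has 1 array, and for the same reason no replicate could be left out. Signal over background limits the dim genes: a difference of 1 pool from another holds mouse, dissection and array together, which cannot be told apart from the genotype.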

Other observations

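Bright probes marked undetected stood outside the comparison. Of 148 probes with signals over 1000 on both disease arrays that neither array detected, 2 were at least 2-fold higher and 2 lower, with a median of -0.06 on the log2 scale. The higher ones were Nqo1, a quinone reductase, at 1.48 and Syt11, a synaptotagmin, at 1.37. The lower ones were Lyz2, the lysozyme of macrophages, at -1.34 and a probe without a gene name at -1.09. Among genes within 2-fold, H2-K1, H2-D1 and B2m, the chains of classical MHC class I, differed by -0.96, -0.79 and -0.87. In 83 genes the brightest probe was undetected while another probe of the gene was detected.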
